A study of Mus musculus with 8 samples.

Results

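The 34 genes described here encode the insulin receptor and its substrates, the kinases that carry the insulin signal through AKT to mTOR, the LKB1 and AMPK energy sensor, the enzymes of hepatic glucose output and a few genes under glucagon or insulin control. They were taken by gene symbol from the 19642 genes of the count table, and all 34 passed the filter on low counts that left 14214 genes for testing. The choice used no measured value, although earlier results of these data were known when it was made.

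RNA was sequenced from whole livers of 4 wild-type (WT) and 4 N-LKO mice on a chow diet (CD), with 1 library per mouse. N-LKO mice lack Nus1, the gene of NgBR, in the liver: NgBR alleles with loxP sites around exon 1, in male mice of the C57BL6 background, were recombined by Cre under the albumin promoter, which is active in hepatocytes, so liver cells that do not make Cre keep Nus1. NgBR is a subunit of the cis-prenyltransferase that makes dolichol phosphate, the lipid carrier for protein glycosylation. The labels give the control mice as WT and say no more of their floxed or Cre alleles. Titles of the samples give 8 weeks and their treatment entries 16 weeks of CD, a legend of the study gives 8 weeks for chow-fed livers of this kind, and food was given freely, but the feeding state of these mice at harvest is not given in the sources used here.

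Insulin binds its receptor on hepatocytes, which phosphorylates the IRS proteins, and these recruit PI3 kinase, which leads to activation of AKT. AKT restrains GSK3 and the FOXO transcription factors and, through TSC1 and TSC2, releases mTOR, so that glycogen is stored and glucose output is held down. Glucagon acts in the opposite direction through cAMP and CREB, and AMPK, switched on by LKB1 when energy is short, slows glucose production and lipid synthesis. Much of this pathway works by phosphorylation, which RNA levels do not show, while Igfbp1, G6pc, Pck1 and Irs2 are textbook examples of genes whose transcription follows fasting, feeding and insulin.

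Promoters of those 4 hormone-controlled genes are shown as background to their values below. The sequences are RefSeq's, on build GRCm38.p6, from up to 250 bases before the RefSeq start, and are cut where the GENCODE gene begins. Capitals mark CAAAACA (or TGTTTTG on the other strand), the core of the insulin response sequence that FOXO proteins bind, and in Pck1 they mark CGTCA, the short form of the cAMP response element that CREB binds. Igfbp1 is printed from chr11:7197537-7197781 and G6pc from chr11:101367466-101367560, both on the plus strand. Pck1 is printed from chr2:173152823-173153047 on the plus strand, and Irs2 from chr8:11008930-11009179 on the minus strand.
Igfbp1: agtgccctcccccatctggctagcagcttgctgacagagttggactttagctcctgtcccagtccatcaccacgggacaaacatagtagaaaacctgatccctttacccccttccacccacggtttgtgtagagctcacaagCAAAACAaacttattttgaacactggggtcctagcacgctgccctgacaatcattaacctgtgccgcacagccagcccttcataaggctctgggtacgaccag
G6pc: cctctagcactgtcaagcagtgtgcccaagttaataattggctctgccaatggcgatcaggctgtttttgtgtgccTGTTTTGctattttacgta
Pck1: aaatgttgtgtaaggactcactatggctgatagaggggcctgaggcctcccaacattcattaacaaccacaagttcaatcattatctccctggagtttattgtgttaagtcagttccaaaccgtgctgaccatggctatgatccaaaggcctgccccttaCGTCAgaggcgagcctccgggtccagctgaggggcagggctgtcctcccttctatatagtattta
Irs2: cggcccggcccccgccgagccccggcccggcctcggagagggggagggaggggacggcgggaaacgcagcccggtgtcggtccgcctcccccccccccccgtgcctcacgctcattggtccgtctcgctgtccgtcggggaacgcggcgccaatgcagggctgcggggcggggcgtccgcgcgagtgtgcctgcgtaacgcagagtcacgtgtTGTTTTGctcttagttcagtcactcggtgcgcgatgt
The search covered both strands of 40 promoters of 31 of the genes, from 250 bases before to 50 after the RefSeq start (none was at hand for Insr, Crtc2 and Trib1). CAAAACA was found in 4 of the 40, namely Igfbp1 at -108, G6pc at -174, Irs2 at -37 and Irs1 at -111 and -32 from the RefSeq start, and in 6.28% of all 32851 promoters of that length. GTAAACA, another FOXO core, was found in 2 of the 40, Akt1 at -161 and Stk11 at 17 (past the start), and in 3.65% of all promoters. The full cAMP response element TGACGTCA was found in none of the 40 and in 1.79% of all promoters. CGTCA, which is contained in it, was found in 17 of the 40, which belong to 15 genes with Pck1 at -90 among them, and in 20.8% of all promoters. These matches describe the letters of the windows and are not evidence that a factor binds there.

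Total counts per mouse were 14688404 to 18585412, and every one of the 34 genes had at least 171 counts in every mouse. Levels are CPM, counts scaled to a common library size. Nus1 itself was at 88.2 ± 4.14 CPM in WT and 36.7 ± 2.57 CPM in N-LKO livers (SD, n = 4 each), with no overlap between the genotypes. Hepatocyte markers, 10 genes led by Alb, summed to 81153 to 110829 CPM in WT and 86854 to 102965 CPM in N-LKO mice, and edgeR called 0 of the 10 (1 at an unadjusted p under 0.05). Of 5 cholangiocyte markers tested, 2 were called higher in N-LKO (all 9 in the table summed to 36.2 to 62.6 CPM in WT and 73.4 to 156.3 in N-LKO), and of 10 fibroblast markers 4 were called higher (155.1 to 213.4 and 247.5 to 354.0 CPM). Among 10 stellate cell markers, 2 were called lower and none higher, while 2 others had an unadjusted p under 0.05 with higher values in N-LKO (all 10 summed to 173.1 to 261.2 CPM in WT and 155.4 to 212.9 in N-LKO), and 1 of 9 macrophage markers, Gpnmb, was called higher, with overlapping sums over the 10 genes (111.1 to 193.7 and 120.1 to 190.5 CPM) and a median log2 fold change of -0.105 over the 9. None of the endothelial (10 tested), lymphocyte (3), erythroid (6) or islet and gut markers (1) was called by edgeR, and 1 of them, an erythroid gene, had an unadjusted p under 0.05. The erythroid markers in the table summed to 73.9 to 571.6 CPM in WT, highest in WT 3, and to 72.1 to 316.1 CPM in N-LKO mice. The part of these cells in the values of the 34 genes was not tested.

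In N-LKO livers, the mRNA of most of these genes was measured close to its WT level. Of the 34 genes, 0 were called by edgeR's quasi-likelihood test at an adjusted p (Benjamini-Hochberg over all 14214 genes) under 0.05, against 1.04% of all genes tested, that is 148, of which 117 were higher and 31 lower. DESeq2 and limma-voom, which called 371 and 126 genes over all genes tested, also called 0 of the 34. A single gene, Stk11, had an unadjusted p under 0.05 (2.94% of the 34, against 12.8% of all genes), and it was also the single gene whose genotypes did not overlap (against 7.52% of all genes).

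Fitted differences were small and went both ways, 16 above 0 and 18 below. The median log2 fold change (N-LKO minus WT) was -0.013, against -0.0033 over all genes tested, and the median size without its sign was 0.116, against 0.13. In 31 of the 34 genes the fitted difference was under 0.25 in size, the exceptions being Igfbp1, Pik3r1 and Pck1. A p above the threshold does not show that levels are alike, so the intervals matter: the 95% interval lay within 0.5 of 0 on the log2 scale in 27 genes and within 1 in 33, Igfbp1 being the exception. The median standard error was 0.105, against 0.141 over all genes, but all 34 averaged at least 13.5 CPM and many tested genes lay lower. Beside the 7223 genes that averaged 10 CPM or more, the 34 varied somewhat more within genotypes (median SD of log2 CPM 0.16 against 0.136). Of the 148 called genes, 17 had a standard error no larger than 0.105, and the smallest fitted difference of a called gene was 0.36 in size. In bulk tissue, fewer cells of a type and less RNA per cell cannot be told apart.

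**Figure D1:**
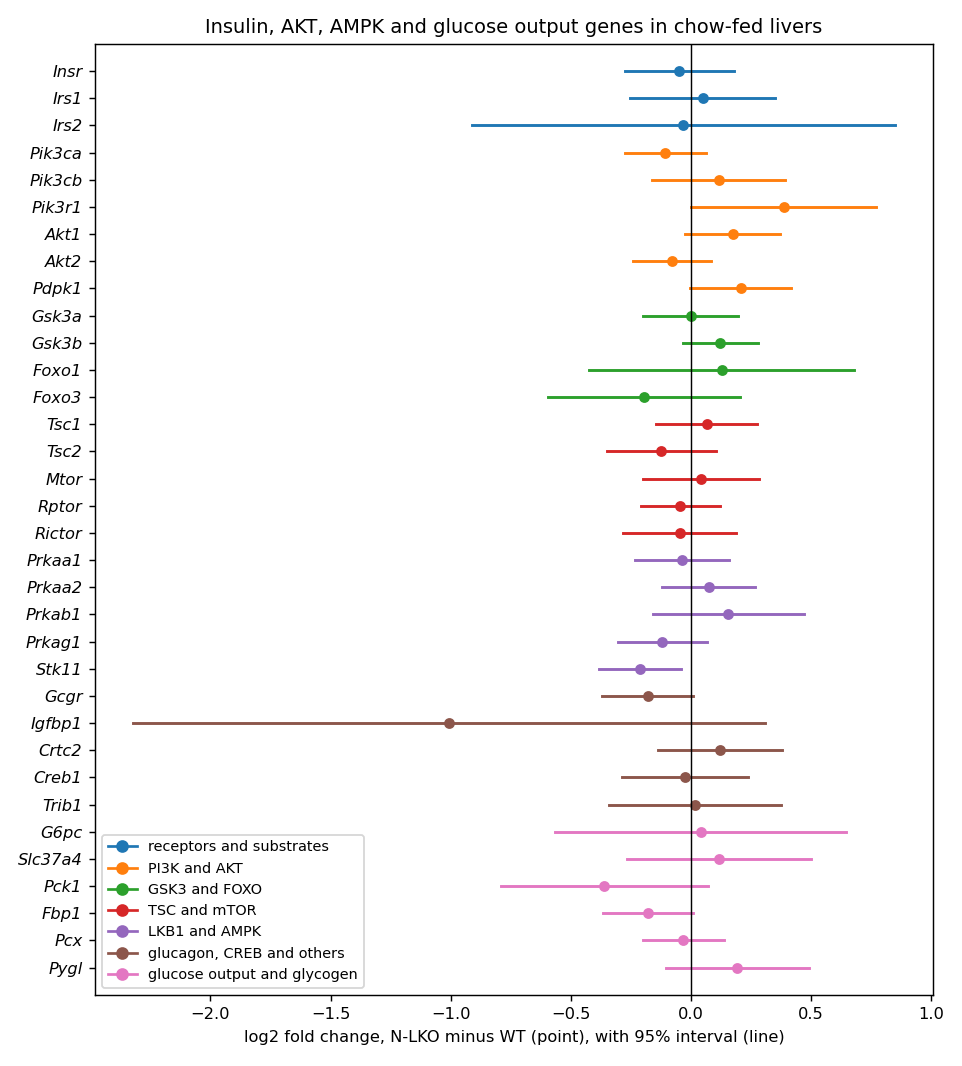
Fitted log2 fold change, N-LKO minus WT, of each of the 34 genes (point) with its 95% interval (line) from edgeR, 4 mice per genotype, coloured by role in the pathway. All intervals but that of Stk11 include 0, and Igfbp1 and Irs2 have the widest.

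At the head of the pathway, the insulin receptor Insr (chr8:3122061-3279617, minus strand) was at 240.1, 237.3, 174.1 and 205.4 CPM in WT mice 1 to 4 and at 206.1, 217.8, 197.7 and 207.3 CPM in N-LKO mice 1 to 4. The N-LKO mice all lay inside the WT range, and their SD was 8.26 CPM against 31.0 in WT. The log2 fold change was -0.05 with a 95% interval of -0.275 to 0.18 (adjusted p = 0.897, edgeR). Irs1, a substrate the receptor phosphorylates, was at 18.5, 18.9, 22.3 and 18.4 CPM in WT and at 22.0, 23.4, 14.6 and 20.6 CPM in N-LKO mice, and the highest and the lowest of the 8 mice were both N-LKO. Its log2 fold change was 0.05 (95% interval -0.26 to 0.35). Irs1 shares 2822 of its 9144 exon bases (30.9%) with Gm9747 on the other strand, and whether counting used the strand is not given in the sources used here. Gm9747 itself was at 7.7 to 15.7 CPM over the mice, against 14.6 to 23.4 CPM for Irs1.

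Irs2 (chr8:10984681-11008458, minus strand), the substrate whose transcription rises when insulin is low, was spread far more widely. Its level was 98.5, 23.6, 34.1 and 33.0 CPM in WT and 52.9, 28.5, 61.3 and 42.7 CPM in N-LKO mice. WT 1 stood far above the other 7 mice, while WT 2 was the lowest, so the N-LKO mice again lay inside the WT range. The log2 fold change was -0.03 with an interval of -0.91 to 0.85 (adjusted p = 0.985, edgeR). Without WT 1 it was 0.62 (adjusted p = 0.276), and the sign also turned in other fits, to 0.142 with the replicate number as a block and 0.14 in limma-voom, so no sign can be given for Irs2.

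In the PI3 kinase and AKT step, 4 genes were fitted above 0 and 2 below, and none was called. Pik3r1, which encodes the p85α regulatory subunit, had the largest fitted difference above 0, at 59.6 ± 14.7 CPM in WT and 77.8 ± 13.4 CPM in N-LKO livers (SD, n = 4 each). The fit gave a log2 fold change of 0.385 with standard error 0.174 (edgeR, adjusted p = 0.391), and only N-LKO 2 and N-LKO 4 were above all WT mice. The catalytic subunits were fitted at -0.11 for Pik3ca and 0.12 for Pik3cb. Pdpk1, the kinase PDK1 that phosphorylates AKT, was at 48.3 ± 3.76 CPM in WT and 55.8 ± 6.76 CPM in N-LKO livers (SD, n = 4 each), with 3 N-LKO mice above the WT range (log2 fold change 0.21, adjusted p = 0.402, edgeR).

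The AKT kinases were fitted on opposite sides of 0, and neither was called. Akt1 was at 34.8, 28.6, 28.6 and 27.8 CPM in WT and at 31.98, 33.99, 36.4 and 32.9 CPM in N-LKO mice, so that WT 1 alone among WT mice reached the N-LKO range. Akt2, the main form in insulin-responsive tissues, was at 48.8, 52.5, 48.2 and 47.7 CPM in WT and at 42.1, 46.9, 48.2 and 49.6 CPM in N-LKO mice, with overlapping ranges. The log2 fold changes were 0.17 for Akt1 (95% interval -0.025 to 0.37) and -0.08 for Akt2 (-0.24 to 0.085). Divided by exon length, the ratio of Akt2 to Akt1 was 0.954 ± 0.106 in WT and 0.795 ± 0.0507 in N-LKO livers (SD, n = 4 each), and it was 0.805 in WT 1, which lay among the N-LKO mice at 0.757 to 0.867. That difference did not pass an exact two-sided permutation test over the mice (p = 0.0571).

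Downstream of AKT, Gsk3b was at 53.2 ± 2.69 CPM in WT and 57.9 ± 3.16 CPM in N-LKO livers (SD, n = 4 each; log2 fold change 0.12, adjusted p = 0.522, edgeR). Gsk3a, its paralog in the control of glycogen synthase, was fitted at -0.001 with an interval of -0.20 to 0.20, and 820 of its 2900 exon bases are shared with 9130221H12Rik on the other strand. Foxo1, the transcription factor that drives gluconeogenic genes when insulin is low, was at 48.3, 95.6, 54.1 and 74.9 CPM in WT and at 69.0, 102.0, 46.0 and 80.9 CPM in N-LKO mice. The highest and the lowest mouse were both N-LKO. Foxo3 was at 37.8, 60.9, 31.3 and 42.9 CPM in WT and at 38.4, 43.0, 30.9 and 38.6 CPM in N-LKO mice, with WT 2 alone well above the rest. The log2 fold changes were 0.13 for Foxo1 (95% interval -0.425 to 0.68) and -0.20 for Foxo3 (-0.595 to 0.20).

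TSC and mTOR genes were all fitted near 0. The 5 log2 fold changes ran from -0.12 to 0.065, with adjusted p-values of at least 0.673 (edgeR). Mtor, the kinase itself, was at 45.0 ± 2.06 CPM in WT and 46.3 ± 7.53 CPM in N-LKO livers (SD, n = 4 each). Rptor, the scaffold of mTOR complex 1, was at 26.8 ± 0.676 and 26.0 ± 1.71 CPM (SD, n = 4 each), and Rictor, the scaffold of complex 2, at 31.3 ± 4.71 and 30.3 ± 1.88 CPM (SD, n = 4 each). The complex that restrains mTOR was fitted at 0.065 for Tsc1 and -0.12 for Tsc2. Tsc2 shares 693 of its 9620 exon bases with Pkd1 on the other strand, and Rptor shares 84 of its 13471 with Rptoros.

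Stk11 (chr10:80115803-80130682, plus strand) encodes LKB1, the kinase that activates AMPK. It was at 48.0, 57.1, 46.9 and 51.0 CPM in WT and at 44.3, 43.0, 43.1 and 45.1 CPM in N-LKO mice. All 4 N-LKO mice lay below all 4 WT mice, although N-LKO 4 and WT 3 were close, and the N-LKO mice spread less (SD 1.03 against 4.56 CPM). The N-LKO mean was 86.4% of the WT mean, for a log2 fold change of -0.21 (95% interval -0.38 to -0.04, unadjusted p = 0.0197, adjusted p = 0.270, edgeR). The exact permutation test on log2 CPM gave p = 0.0286, the smallest that 4 mice against 4 can give. Genotypes that do not overlap always give this p, so it adds nothing to that separation. Without WT 2, the highest mouse, the log2 fold change was -0.15 and the adjusted p from edgeR 0.486. In that fit the unadjusted p of Stk11 was no longer under 0.05. Stk11 shares 232 of its 4580 exon bases with Cbarp on the other strand, whose own level was at most 0.794 CPM.

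Genes of the AMPK heterotrimer were fitted from -0.12 to 0.155, and none was called. The catalytic subunit Prkaa1 was at 18.5, 17.0, 17.8 and 16.9 CPM in WT and at 16.2, 19.5, 16.7 and 16.1 CPM in N-LKO mice. Prkaa2 was at 110.3, 96.2, 85.7 and 94.9 CPM in WT and at 105.6, 108.4, 97.9 and 95.4 CPM in N-LKO mice. N-LKO 2 was the highest of all mice for Prkaa1 and 3 N-LKO mice were below the WT range, while for Prkaa2 all N-LKO mice lay inside it. Their log2 fold changes were -0.04 (95% interval -0.23 to 0.16) and 0.07 (-0.12 to 0.27). The β subunit gene Prkab1 was at 12.8 ± 0.948 CPM in WT and 14.2 ± 3.10 CPM in N-LKO livers (SD, n = 4 each). The γ subunit gene Prkag1 was at 17.6 ± 0.562 and 16.2 ± 1.25 CPM (SD, n = 4 each), with 950 of its 2175 exon bases shared with B130046B21Rik on the other strand.

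In hepatic glucose output, 3 genes were fitted above 0 and 3 below, and none was called. G6pc (chr11:101367561-101377903, plus strand), the glucose-6-phosphatase that frees glucose from the cell, was at 784.2, 497.5, 426.2 and 434.8 CPM in WT and at 809.2, 334.5, 639.9 and 419.1 CPM in N-LKO mice. WT 1, N-LKO 1 and N-LKO 3 were high and the other 5 mice low, so the genotypes overlapped fully. The log2 fold change was 0.04 with an interval of -0.57 to 0.65 (adjusted p = 0.975, edgeR). Slc37a4, which carries glucose 6-phosphate to that enzyme, was at 112.6 ± 27.3 and 122.0 ± 23.5 CPM (SD, n = 4 each), with a log2 fold change of 0.12.

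Pck1 (chr2:173153048-173159273, plus strand) encodes phosphoenolpyruvate carboxykinase, the enzyme that commits oxaloacetate to gluconeogenesis. Its level was 4163, 4199, 2353 and 3759 CPM in WT and 2979, 2837, 2111 and 3344 CPM in N-LKO mice. WT 1, WT 2 and WT 4 were above all N-LKO mice, and WT 3 lay below 3 of them. The N-LKO mean was 77.9% of the WT mean and the log2 fold change -0.36 (95% interval -0.79 to 0.07, adjusted p = 0.487, edgeR). Without WT 3 it was -0.52, and the adjusted p from edgeR was 0.215.

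The remaining enzymes had narrower intervals. Fbp1, fructose-1,6-bisphosphatase, was at 810.2 ± 60.2 CPM in WT and 715.7 ± 35.9 CPM in N-LKO livers (SD, n = 4 each), with 3 N-LKO mice below the WT range (log2 fold change -0.18, 95% interval -0.37 to 0.01, adjusted p = 0.417, edgeR). Scaled by library totals alone, its genotypes no longer overlapped, while the adjusted p stayed at 0.309 or more in every setting with all mice. Pcx, pyruvate carboxylase, was at 384.9 ± 24.7 and 376.5 ± 13.6 CPM (SD, n = 4 each), a log2 fold change of -0.03 (-0.20 to 0.14). Pygl, the liver glycogen phosphorylase, was at 194.8 ± 20.2 and 222.7 ± 43.1 CPM (SD, n = 4 each), a log2 fold change of 0.19 (-0.10 to 0.49).

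Igfbp1 (chr11:7197782-7202546, plus strand) encodes a secreted binding protein for insulin-like growth factors that insulin represses, and it had the largest fitted difference and the widest interval of the 34. Its level was 1066, 740.6, 73.6 and 294.7 CPM in WT and 356.6, 188.3, 205.1 and 332.8 CPM in N-LKO mice. WT 1 and WT 2 were the highest of all mice and WT 3 the lowest, a 14.5-fold range, while the N-LKO mice lay between with a 1.89-fold range. The log2 fold change was -1.01 with an interval of -2.32 to 0.31 (adjusted p = 0.530, edgeR), and the difference of mean log2 CPM was smaller, at -0.475 (p = 0.629 in the exact permutation test). Leaving out single mice, the fit ran from -1.37 without WT 3 to -0.45 without WT 1. With these mice the size of a difference in Igfbp1 is known only within that interval.

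The glucagon receptor Gcgr was at 87.4 ± 7.56 CPM in WT and 77.1 ± 6.22 CPM in N-LKO livers (SD, n = 4 each), with 2 N-LKO mice below the WT range (log2 fold change -0.18, 95% interval -0.37 to 0.01, adjusted p = 0.416, edgeR). Creb1, the transcription factor that glucagon activates, was fitted at -0.03, and its coactivator Crtc2 at 0.12. Trib1 (chr15:59648350-59657099, plus strand), a pseudokinase, was at 34.1, 41.9, 38.6 and 32.5 CPM in WT and at 41.2, 29.2, 48.8 and 29.5 CPM in N-LKO mice. Of the N-LKO mice, 1 lay above the WT range, 2 below and 1 inside it, and the log2 fold change was 0.02 (-0.34 to 0.37).

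**Figure D2:**
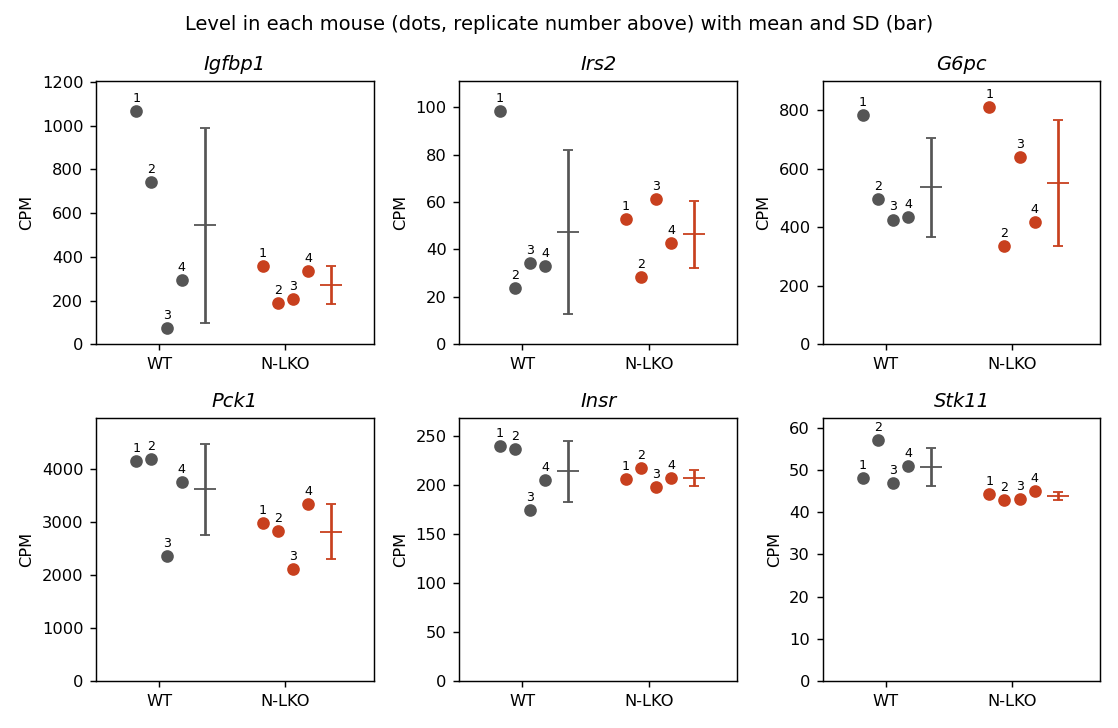
Levels in CPM (linear axes from 0) of 6 genes in each mouse, with the replicate number above each dot and the mean ± SD (n = 4) beside each genotype. Igfbp1 and Irs2 are spread most in WT mice, from 73.6 to 1066 and from 23.6 to 98.5 CPM, and Stk11 is the gene without overlap.

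Mice of the same genotype varied most in Igfbp1, Irs2, G6pc and Foxo1, while many kinases and scaffolds were steady. The SD of log2 CPM within genotypes had a median of 0.16 over the 34 genes, against 0.136 over the 7223 genes that averaged 10 CPM or more. It was above the 95th percentile of those genes, 0.378, in 4 of the 34, namely Igfbp1 at 1.26, Irs2 at 0.716, G6pc at 0.50 and Foxo1 at 0.466. Pck1 followed at 0.344, percentile 93.6 of those genes. Trib1 was at 0.283 (percentile 90.3) and Insr at 0.159 (percentile 62.7). At the other end, Rptor was at 0.071, percentile 7.93, and 15 of the 34 genes were below 0.15.

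The most variable genes did not rank the mice in 1 common order. WT 1 was the highest mouse for Igfbp1 and Irs2 and the next to highest for G6pc and Pck1, but the next to lowest for Foxo1. For Igfbp1 the lowest mouse was WT 3, for Irs2 it was WT 2, for G6pc N-LKO 2 and for Pck1 N-LKO 3. Outside the 34 genes, WT 1 was also the highest mouse for Sik1, a kinase induced by cAMP, at 66.0 CPM against 9.33 to 40.1 in the others, and for Pdk4, which shuts pyruvate dehydrogenase in fasting, at 107.99 against 24.9 to 79.2 CPM. The feeding state of that mouse is not known, and its part in these values was not tested.

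**Figure D3:**
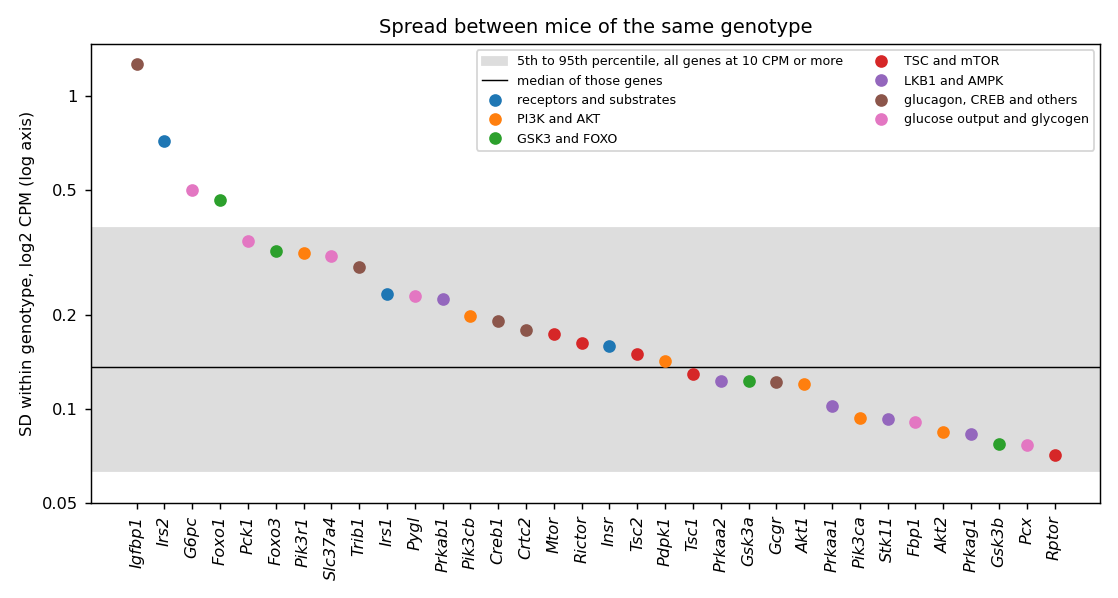
SD of log2 CPM within genotypes (pooled over both genotypes, log axis) for each of the 34 genes, coloured by role, with the 5th to 95th percentile band (0.0634 to 0.378) and the median of the 7223 genes with at least 10 CPM. Igfbp1, Irs2, G6pc and Foxo1 stand above the band.

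Levels between genes were compared only per length, as CPM per kilobase (kb) of merged exons. In WT livers the glucose output genes and Igfbp1 led, with Pck1 at 1055 ± 252.8 (SD, n = 4), Fbp1 at 476.0 ± 35.4, Igfbp1 at 356.5 ± 291.8, G6pc at 221.9 ± 69.9 and Pcx at 81.0 ± 5.19 CPM per kb. Slc37a4 followed at 39.4, Gcgr at 33.3, Pygl at 28.2 and Insr at 15.6 CPM per kb, and the other genes lay lower, down to Tsc1 at 1.76 CPM per kb. In that order, 25 neighbouring pairs of genes had overlapping ranges over the WT mice and 8 did not.

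Some partners kept a fixed order in every liver of either genotype. Per kb, Prkaa2 was above Prkaa1 in 8 of 8 mice by 2.81 to 3.80 times, Gsk3a above Gsk3b by 1.65 to 2.30 times, and Pik3ca above Pik3cb by 2.02 to 2.99 times. Irs2 was above Irs1 in 8 of 8 mice, but by ratios that ran from 1.76 in N-LKO 2 to 7.71 in WT 1. Foxo1 was above Foxo3 in 8 of 8 mice, by 1.12 to 2.07 times, and Gcgr above Insr by 1.69 to 2.81 times. The ratio of Prkaa2 to Prkaa1 was 3.22 ± 0.289 in WT and 3.49 ± 0.233 in N-LKO livers (SD, n = 4 each; exact permutation test, p = 0.286). None of the 9 ratios looked at separated the genotypes, and the smallest permutation p among them was the 0.0571 of Akt2 to Akt1 (0.513 after Benjamini-Hochberg adjustment over the 9). Levels of Irs1 and Gsk3a hold any reads from the other strand in the bases given above.

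**Figure D4:**
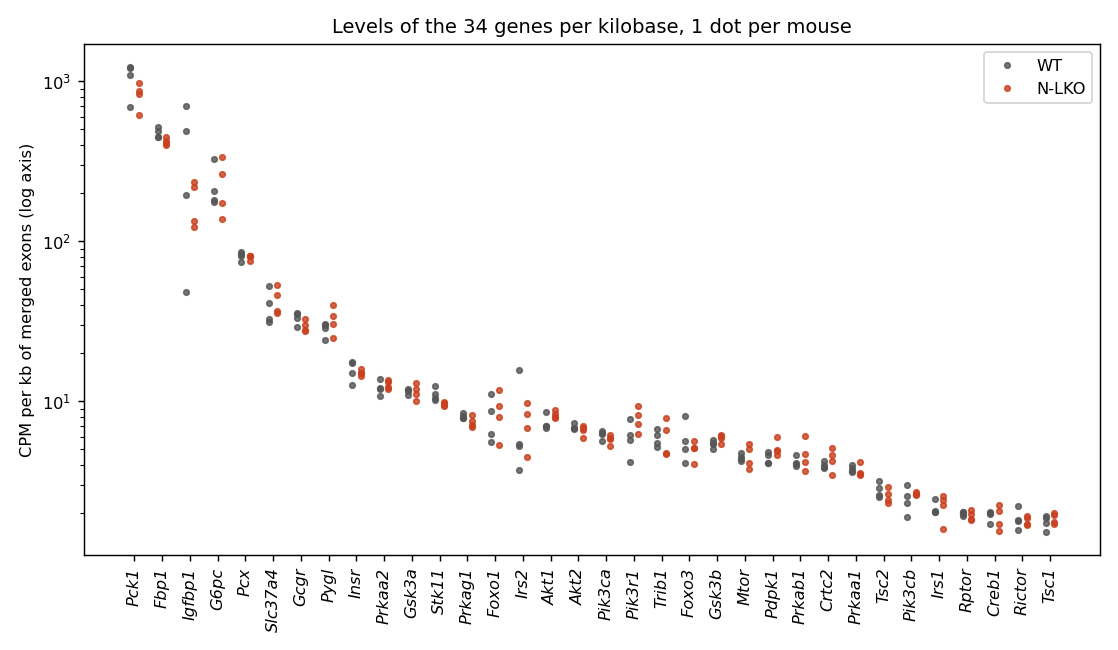
Level of each of the 34 genes in CPM per kb of merged exons (log axis), 1 dot per mouse, ordered by the WT mean. Pck1 leads at 1055 CPM per kb and Tsc1 is last at 1.76, and the 2 colours of dots overlap in all genes but Stk11.

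Around the 34 genes, 8 further lists of the same pathways held 222 other genes, of which 207 were tested. The edgeR test called 3 of them (1.45%, against 1.04% of all genes), 2 higher and 1 lower in N-LKO, and 32 had an unadjusted p under 0.05 (15.5%, against 12.8%). No gene was called among 29 tested for insulin and IGF signalling, 32 of the mTOR complexes and their outputs, 18 partners of AMPK, 33 of the glucagon and cAMP route, 42 enzymes of glycolysis and gluconeogenesis or 25 of glycogen metabolism. The median log2 fold change of these lists lay between -0.05 and 0.04. At an unadjusted p under 0.05 they held 6, 2, 0, 3, 8 and 3 genes in that order. DESeq2, which called 371 genes over all genes tested, called 1 each among the mTOR, glycolysis and glycogen lists. Limma-voom called 0 in all of these lists.

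The 3 called genes belong to the lists of genes raised by fasting (22 tested, median log2 fold change 0.06) and by feeding (19 tested, median -0.09). Fgf21, a hormone the liver secretes in fasting, was at 5.02, 4.06, 5.07 and 4.86 CPM in WT and at 3.06, 2.38, 2.39 and 2.10 CPM in N-LKO mice. It fell by 0.93 on the log2 scale (standard error 0.162, adjusted p = 0.0224, edgeR), with no overlap. Cdkn1a, a cell cycle inhibitor on the fasting list, rose from 47.8 ± 7.22 to 71.9 ± 3.05 CPM (SD, n = 4), a log2 fold change of 0.59 (adjusted p = 0.0224, edgeR). Insig1, which holds SREBP in the endoplasmic reticulum and is raised by feeding, rose from 29.4 ± 3.08 to 54.0 ± 11.0 CPM (SD, n = 4), a log2 fold change of 0.88 (adjusted p = 0.0180, edgeR). Left-out mice cost the call in 6 of 8 fits for Fgf21 (adjusted p up to 0.0785), in 6 of 8 for Cdkn1a (up to 0.0679) and in 3 of 8 for Insig1 (up to 0.0608), each highest without N-LKO 3 in edgeR. The log2 fold changes in those 8 fits stayed between -1.05 and -0.86, 0.50 and 0.68, and 0.805 and 1.02. With the replicate number as a block the adjusted p of Fgf21 was 0.0572 (edgeR).

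The feeding list held more small p-values than the others, in both directions. Of its 19 tested genes, 9 had an unadjusted p under 0.05, 4 with higher and 5 with lower values in N-LKO (47.4%, against 12.8% of all genes), and 6 did not overlap (31.6%, against 7.52%). DESeq2 called 5 of them and limma-voom 1, while over all genes DESeq2 called 371 and limma-voom 126, against 148 for edgeR. The fasting list had 3 of 22 at an unadjusted p under 0.05, and DESeq2 and limma-voom each called 2. Both lists were chosen with earlier results of these data known, so their shares are no independent evidence of a change in them.

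Gys2, the liver glycogen synthase, had the smallest p among the genes taken by name that were not called. It was at 221.6, 284.5, 216.4 and 247.3 CPM in WT and at 148.2, 217.8, 171.3 and 138.9 CPM in N-LKO mice, and N-LKO 2 alone reached the WT range. Its log2 fold change was -0.52 (95% interval -0.835 to -0.21, adjusted p = 0.142, edgeR). DESeq2 called it with an adjusted p of 0.0263, as did edgeR without N-LKO 2 (adjusted p = 0.0300). Pklr, the liver pyruvate kinase, had genotypes that did not overlap (log2 fold change -0.21, adjusted p = 0.299, edgeR). For the glucose transporter Slc2a2 the log2 fold change was -0.28, for Pdk4 0.23 and for the coactivator Ppargc1a -0.23, each with an interval that included 0.

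Regulators around the pathway, taken by name, were not called. Log2 fold changes were 0.08 for Igf1, 0.22 for its receptor gene Igf1r, 0.05 for Rheb, the GTPase that activates mTOR, and -0.06 for its output Eif4ebp1. The other genes taken by name were fitted at 0.12 for Sik1, -0.22 for Trib3, -0.10 for Klf15, 0.11 for Ppp1r3b, -0.41 for Ppp1r3c, 0.13 for Sesn1 and -0.06 for Igfbp2, each with an adjusted p of at least 0.777 (edgeR).

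**Figure D5:**
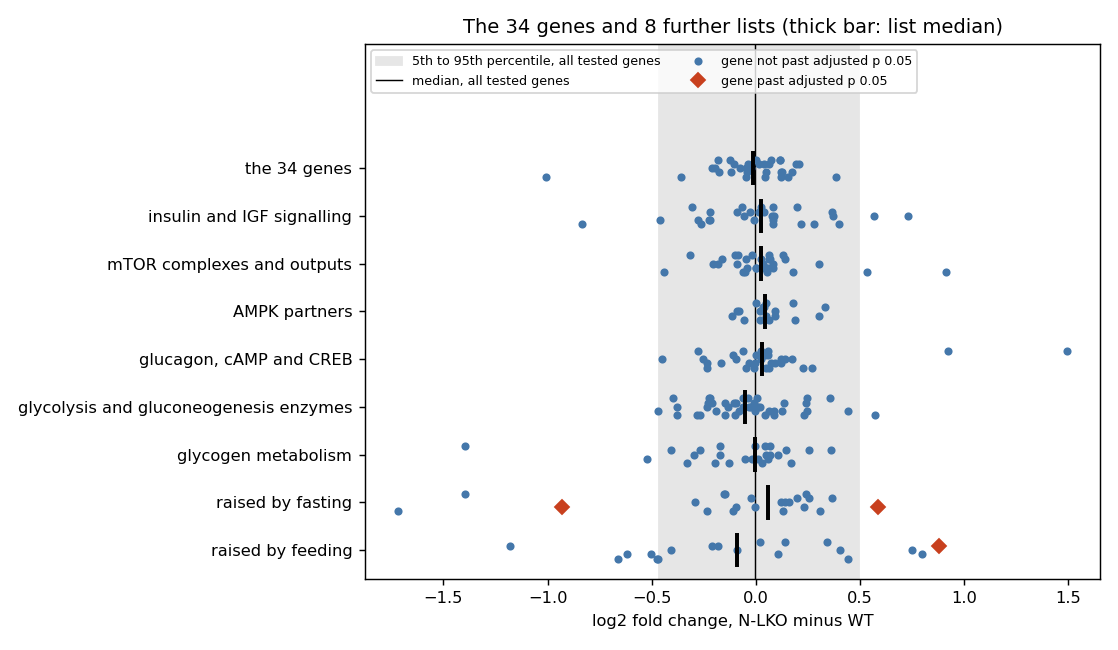
Log2 fold change, N-LKO minus WT, of each tested gene of the 34 and of 8 further lists, with a thick bar at each list's median and a grey band from the 5th to the 95th percentile of all tested genes. Diamonds mark the 3 called genes, Fgf21 and Cdkn1a on the fasting list and Insig1 on the feeding list.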

How the data were processed

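After rRNA removal, liver RNA of 4 mice per genotype was sequenced, and the genotype entries of the labels set the groups. The authors trimmed the reads and deposited expected counts (estimates of the reads of each gene), not scaled for depth (in 52.2% of the genes at least 1 value had decimals). For the aligner, the study's methods name TopHat2 and the submitters' processing notes name STAR, Partek and mm9. The program behind the counts and its use of strand are not given in the sources used here. The labels name a small RNA library kit. Coordinates in the table are those of GENCODE M21 on GRCm38 for 19006 of 19642 genes and for all 34 described here, so that build was used.

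Counts were rounded to whole numbers, filtered by edgeR's filterByExpr (minimum count 10, minimum total 15), scaled by TMM and compared by genotype alone in R 4.3.3 with the quasi-likelihood functions glmQLFit and glmQLFTest of edgeR 4.0.16. All 14214 genes tested entered the Benjamini-Hochberg adjustment, and an adjusted p under 0.05 made a call. Standard errors are log2 fold changes over the square root of F, and 95% intervals use the fit's degrees of freedom. Log2 CPM used a prior count of 2, and single genes were also put to exact permutation tests, two-sided, on the 8 mice. The fits were tested on simulated data. P-values set the difference between genotypes against the spread between these mice. Total counts of 14688404 to 18585412 per mouse leave more counting error in the low genes named, such as Fgf21 (at least 31 counts in a mouse) and Trib3 (28), than in the 34 (171).

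The genes and the further lists were chosen with earlier results of these data known. Named in every mouse were genes with an unadjusted p under 0.05 or no overlap, the hormone-controlled genes and the pairs of related genes, and of the further lists the called genes and 19 names, of which 3 are not reported here. Akt1, Foxo1 and Foxo3 belong to the pairs. Pik3r1, Pdpk1 and the mice singled out in the text were chosen after their values were seen.

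Alternatives were RLE scaling, library totals, no filter, a minimum of 10 counts in every mouse, a block by replicate or by library number, DESeq2 1.42.0, limma-voom (limma 3.58.1), each mouse left out, and a prior count of 0.5. No pair of libraries agreed within sampling noise (chi-square per degree of freedom 11.8 to 69.3). Same-numbered mice deviated together little or not at all (correlation -0.0853 to 0.0625 by title, -0.0092 to 0.166 by library number). These values give no clear sign of pairs but cannot exclude them.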

Additional observations from a re-analysis of the deposited data

Results flagged for a closer look

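Single mice stood far from the other 3 of their genotype in 12 groups in CPM and in 9 in log2 CPM, over 54 genes each looked at in 2 genotypes, by Dixon's test at its 95% critical value. About 1 in 20 groups, 5.4 here, would be picked out by chance, and the groups share mice. Among the 34 genes, WT 1 stood apart for Irs2 (98.5 CPM), for Akt1 (34.8 CPM, 5.13 in log2 CPM) and for Creb1, where it was low (23.6 CPM, 4.57 in log2 CPM). WT 3 was high for Irs1 (22.3 CPM, 4.48 in log2 CPM). N-LKO 2 was high for Prkaa1 (19.5 CPM), and N-LKO 3 was low for Pcx (356.2 CPM, 8.48 in log2 CPM). Outside the 34 genes, WT 1 was low for Nus1 (82.0 CPM, 6.36 in log2 CPM) and high for Pdk4 (107.99 CPM) and Sik1 (66.0 CPM). N-LKO 1 was low for Insig1 (5.24 in log2 CPM) and for Igf1 (499.7 CPM, 8.97 in log2 CPM), WT 3 was high for Ppp1r3c (87.6 CPM, 6.46 in log2 CPM), and N-LKO 3 was high for Sesn1 (12.6 CPM, 3.67 in log2 CPM).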

How the results depend on the processing

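None of the 34 genes was called under any of the 16 alternatives, and the lowest adjusted p in any of them was 0.167 (edgeR, Igfbp1 without WT 3). Over all genes, 148 calls became 98 with at least 10 counts in every mouse, 371 with DESeq2 and 71 to 173 with a mouse left out. With the replicate block they were 131, and with the replicate block by library number 113. Genes of the 34 with an unadjusted p under 0.05 numbered 1 in the analysis reported, 2 with RLE scaling or no filter, 3 with library totals, DESeq2, limma-voom or the block by library number, 5 with the replicate block (Pik3r1, Pdpk1, Stk11, Pck1 and Gcgr) and 1 to 4 with a mouse left out. Genes without overlap numbered 2 with library totals and 1 to 5 with a mouse left out (5 without WT 3). With fewer mice, genotypes fail to overlap more readily in any gene. Shares over all genes tested are given only for the analysis reported, so the counts under other settings are no result about the 34. The median log2 fold change of the 34 ran from -0.039 to 0.009 with a mouse left out. Of the further lists, DESeq2 called 1 gene each for mTOR, glycolysis and glycogen and 5 for feeding. The fasting list held 1 call with the replicate block, and the feeding list 2 with no filter or either block. With a mouse left out, calls ran from 0 to 1 for glycolysis, glycogen and fasting and from 0 to 2 for feeding.

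Signs near 0 turned. Irs2 was fitted at 0.142 with the replicate block, 0.137 with the block by library number and 0.14 with limma-voom. G6pc was fitted at -0.005 with the block by library number, and Trib1 at -0.013 with library totals, -0.0084 and -0.0085 with the blocks and -0.0075 with limma-voom. With library totals, the log2 CPM difference was -0.0053 for Irs1, -0.0044 for Mtor and -0.032 for G6pc. With a mouse left out, log2 fold changes ran from -0.136 to 0.011 for Insr, -0.026 to 0.175 for Irs1, -0.254 to 0.616 for Irs2, -0.067 to 0.062 for Gsk3a, -0.06 to 0.333 for Foxo1, -0.323 to 0.013 for Foxo3, -0.039 to 0.123 for Mtor, -0.119 to 0.057 for Rictor, -0.206 to 0.282 for G6pc, -0.0049 to 0.28 for Slc37a4, -0.118 to 0.059 for Creb1 and -0.139 to 0.119 for Trib1. Outside the 34 they ran from -0.045 to 0.162 for Igf1, -0.162 to 1.18 for Sik1, -0.118 to 0.013 for Eif4ebp1, -0.473 to 0.0053 for Trib3, -0.279 to 0.167 for Klf15, -0.044 to 0.287 for Ppp1r3b, -0.761 to 0.16 for Ppp1r3c, -0.016 to 0.346 for Sesn1 and -0.171 to 0.067 for Igfbp2. The causes were not tested. The numbers gave no clear sign of paired mice, and a call lost or gained under a block is no measure of the size of a difference. With 4 mice per genotype, differences as small as those fitted here lie inside most intervals, and RNA levels do not show protein or phosphorylation.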
